A study of Mus musculus with 4 samples.

Results

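Of the 15824 peaks in the merged NFIC list of mouse pancreas, 2983 (18.9%) lay in intergenic DNA at more than 10 kb and at most 100 kb from the nearest transcription start site (TSS). They were selected by position alone, from the genomic class and the distance that the authors' annotation gives, and are called mid-range intergenic peaks here. The list summarises 3 ChIP-Seq libraries prepared with an anti-NFIC antibody from the pancreas of wild-type mice, beside 1 library of input DNA from the same tissue. The mice were 8 to 12 weeks old by the deposited description, of a strain labelled Mixed, and no treatment or altered allele is named. Whole pancreas was used, in which acinar cells are the main cell type, so peaks cannot be assigned to a cell type. The list holds no value for a single library, so the spread between replicates and the depth of the libraries are unknown. Shares are therefore given with 95% Wilson intervals and differences of shares with 95% Newcombe intervals. All intervals cover counting error only, because peaks of 1 merged list are not replicates.

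NFIC belongs to the nuclear factor I (NFI) family, whose members bind DNA as dimers. Each subunit of the dimer reads 1 arm of an inverted repeat, and the arms are set apart by a short spacer of variable sequence. Intergenic binding of transcription factors at a distance from promoters is commonly found at enhancers, where several factors bind side by side. In acinar cells such elements are known to be bound by PTF1A, NR5A2, GATA6 and MIST1.

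The NFI full site was defined as TGGC and GCCA set 5 bases apart, and searched in the 200 bp centred on each peak. The site was called exact when all 8 fixed bases matched. The 2 mid-range intergenic peaks with the highest score of the authors both held exact sites and are shown whole, on the + strand of GRCm38 (mm10), with the exact sites in capitals.
*Irf2bp2*, chr8:126666559-126666731: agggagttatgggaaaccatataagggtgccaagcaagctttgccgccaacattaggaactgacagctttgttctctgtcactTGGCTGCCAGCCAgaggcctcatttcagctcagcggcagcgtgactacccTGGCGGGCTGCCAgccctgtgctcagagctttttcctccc
*Srp14*, chr2:118510505-118510677: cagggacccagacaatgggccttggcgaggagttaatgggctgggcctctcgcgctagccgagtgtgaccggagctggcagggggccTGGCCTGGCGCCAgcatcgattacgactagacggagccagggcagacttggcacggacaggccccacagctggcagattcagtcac

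The *Irf2bp2* peak held 2 exact sites, with their middles 3 and 53 bp from the peak centre. In the *Srp14* peak the site was 7 bp from the centre. Another 8 exact sites are given with 12 bases to each side, from peaks whose nearest gene is among the genes named here. They show how the letters between and around the fixed arms vary.
*Skil*, chr3:31083867-31083903: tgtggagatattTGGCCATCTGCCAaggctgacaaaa
*Tmem177*, chr1:119895156-119895192: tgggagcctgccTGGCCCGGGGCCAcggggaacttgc
*Arid1a*, chr4:133774747-133774783: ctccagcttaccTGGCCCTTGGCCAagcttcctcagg
*Edem1*, chr6:108871489-108871525: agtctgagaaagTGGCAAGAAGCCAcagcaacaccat
*Krt19*, chr11:100168239-100168275: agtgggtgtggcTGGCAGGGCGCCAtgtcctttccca
*Amy2b*, chr3:113195271-113195307: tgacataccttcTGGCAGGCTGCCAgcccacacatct
*Klf2*, chr8:72308520-72308556: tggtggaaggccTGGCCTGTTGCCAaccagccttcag
*Tcf3*, chr10:80444549-80444585: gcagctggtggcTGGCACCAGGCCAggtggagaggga

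Not every strong peak had such a site. The peak near *Idh2* had the third highest score of the mid-range intergenic peaks, 30.7, together with that of *Rmi2*, and no NFI full site even with 1 mismatch. It is shown as a contrast, chosen after its values were seen. Its sequence has 2 copies of the single arm TTGGCA (capitals, either strand) on opposite strands, at 7 and 18 bp from the centre on either side of it.
*Idh2*, chr7:80134503-80134675: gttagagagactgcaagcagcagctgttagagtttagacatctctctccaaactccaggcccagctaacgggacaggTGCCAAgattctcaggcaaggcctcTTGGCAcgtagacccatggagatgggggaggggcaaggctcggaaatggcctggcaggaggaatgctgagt

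The NFI full site, with at most 1 mismatch, was present in 1625 of the 2983 mid-range intergenic peaks (54.5%, 52.7 to 56.3), beside 51.8% of all peaks in the list. Gene-proximal intergenic peaks, at most 10 kb from the TSS, had the site in 55.9%, and gene-desert intergenic peaks, over 100 kb away, in 57.3%. Neither differed from the mid-range peaks beyond counting error, with differences of -1.38 points (-4.72 to 1.98) and -2.82 points (-6.90 to 1.34). Peaks in introns had the site slightly more often, in 56.9%, a difference of -2.40 points (-4.56 to -0.25). Peaks of the promoter-TSS class had it in 36.0%, which is 18.5 points less (16.1 to 20.9). In the upper 2 quartiles of score the gap was 9.74 points (6.24 to 13.2), and in the top quartile the shares were 67.8% for mid-range and 62.6% for promoter-TSS peaks. As a genomic background, all 3224939 windows of 200 bp in intergenic DNA at the same distance from a TSS were searched. The site was found in 5.99% of them, and in 9.88% when the windows were weighted to the GC content of the peaks.

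An exact site was present in 469 mid-range intergenic peaks (15.7%, 14.5 to 17.1), beside 13.4% of all peaks. Promoter-TSS peaks had an exact site in 4.83%, and the windows in 0.298%, or 0.602% after weighting by GC content. The share of mid-range peaks was thus 52.8 times that of the unweighted and 26.1 times that of the GC-weighted windows. More than 1 full site was found in 9.32% of the mid-range intergenic peaks. The share of peaks with a full site varied little with distance within the class. It was 54.7% at 10 to 20 kb, 55.4% at 20 to 50 kb and 52.5% at 50 to 100 kb, and the difference between the last and the first was -2.17 points (-7.00 to 2.68). Peaks upstream and downstream of the TSS had the site in 54.4% and 54.6%.

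**Figure D1:**
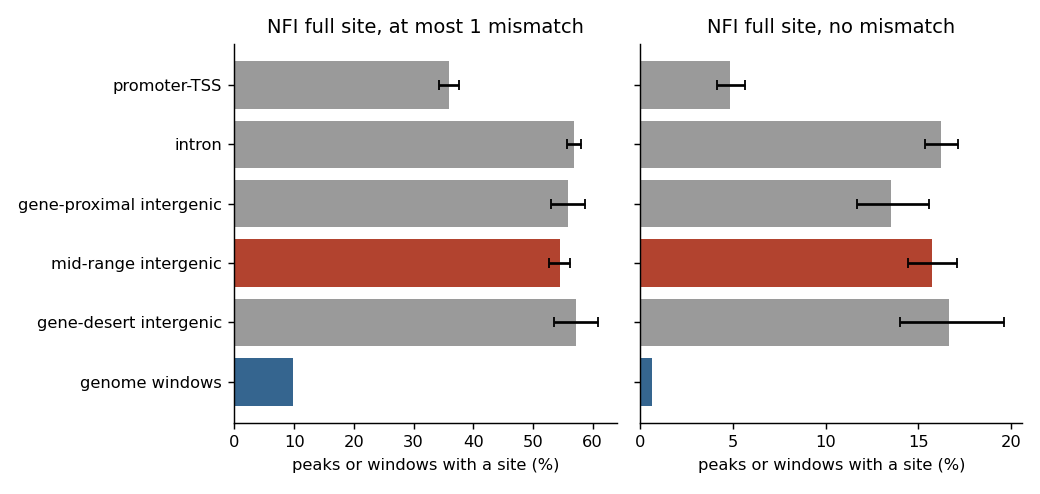
Share of peaks with an NFI full site by genomic class, with at most 1 mismatch (left) and none (right), in percent, with 95% Wilson intervals as bars, and the GC-weighted share of intergenic windows in blue. Mid-range intergenic peaks (red, 54.5% and 15.7%) lie near the other intergenic and intronic classes and above promoter-TSS peaks.

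The spacing of the arms was strict. When TGGC and GCCA were searched without mismatch at every spacing from 0 to 12 bases, the spacing of 5 bases was found in 469 peaks and each other spacing in at most 82. Relative to the GC-weighted intergenic windows, the share of peaks was 26.1 times as high at 5 bases and between 0.777 and 4.46 times as high at the other spacings. Without weighting, the ratio was 52.8 at 5 bases and between 1.41 and 8.38 at the others. Spacings of 4 and 6 bases were found in 43 and 45 peaks, 1.69 and 3.02 times the share of the weighted windows. By the nearest site of each peak, 43.1% of the peaks with a full site had it within 20 bp of the peak centre. Of those with an exact site, 46.7% did. A single site spread evenly over the window would lie there in 21.8%. For peaks with more than 1 site the even spread would give a higher share, which was not computed. The median distance from the centre was 25 bp for full sites and 22 bp for exact sites.

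**Figure D2:**
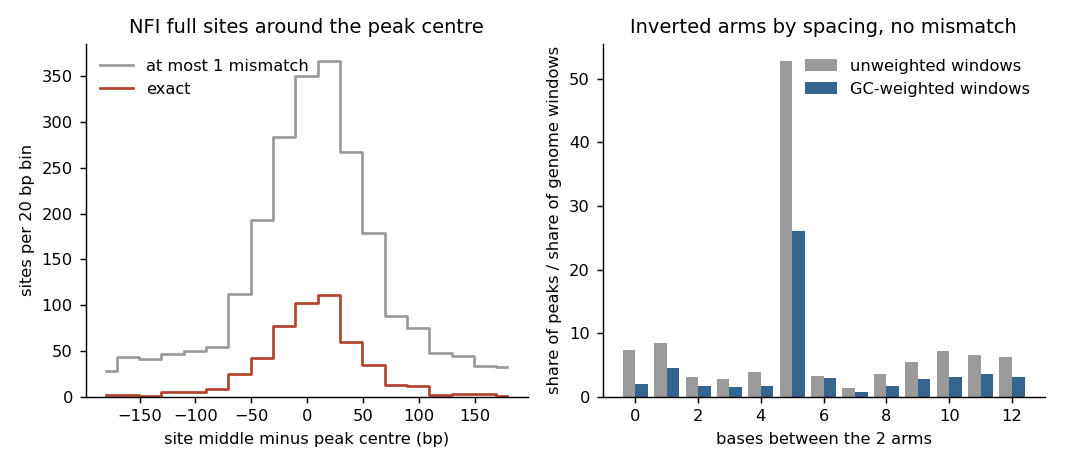
Left, number of NFI full sites of mid-range intergenic peaks per bin of 20 bp, by distance of the site's middle from the peak centre in bp; right, share of peaks over share of intergenic windows for the arms at each spacing in bases, with unweighted (grey) and GC-weighted (blue) windows. Both curves are highest in the bins from -10 to 29 bp, and the ratio for a spacing of 5 bases stands at 52.8 and 26.1.

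The letters of the sites were not equally frequent. Exact sites numbered 477 and had 219 of 512 possible spellings of the spacer, with the 2 strands counted as 1. The most frequent, TGGCAGAGAGCCA, was found 10 times, so no single sequence accounted for the class. The base just outside an arm was C in 50.1% and T in 29.7%, against 26.9% and 18.5% in the 9526 exact sites of intergenic windows. The windows were not weighted by GC content here, and the part of base composition was not tested. Within the spacer, the base next to an arm was G in 5.35%, whereas A was found in 38.1% and T in 31.7%. A G at this place follows the C of the arm as CpG, and no share in windows was computed for this base. A preference of NFIC can therefore not be read from it. Among 1448 sites with exactly 1 mismatch, the mismatch was at the outer T of an arm in 38.6% and at the inner C in 42.3%. It was at the first G of an arm in 4.90% and at the second G in 14.2%. In the unweighted windows the corresponding shares were 15.8% (outer T), 40.4% (inner C), 16.1% (first G) and 27.7% (second G). Mismatches at either G were therefore less frequent in the peaks than in the unweighted intergenic background, and those at the outer T more frequent.

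The peak score ranged from 3.39 to 47.4 in mid-range intergenic peaks, on a scale that the sources used here do not name, with a median of 6.37 (6.37 to 6.57). The top quartile of the whole list (score of 9.16 or more) held 25.5% of all peaks and 24.97% of the mid-range ones. This was 4.06 points less than among gene-proximal intergenic peaks, of which 29.0% were in the top quartile (-7.12 to -1.08). It was 4.21 points more than among gene-desert intergenic peaks, with 20.8% (0.656 to 7.50). Without peaks on repeats, the second difference was 3.75 points (-0.228 to 7.43).

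A full site was more frequent in strong peaks. It was present in 67.8% of the mid-range peaks of the top quartile and in 48.5% of those of the lowest, a difference of 19.3 points (14.4 to 24.01). This difference came from sites with 1 mismatch. Peaks with such a site and no exact one made up 49.8% of the top quartile, 39.7% and 34.4% of the next quartiles and 31.4% of the lowest. Exact sites did not follow the score in this way. They were present in 17.99%, 12.2%, 15.5% and 17.1% of the peaks from the highest to the lowest quartile, and the highest and lowest differed by 0.865 points (-2.92 to 4.67). In all other peaks of the list, which include the promoter-TSS class, exact sites were present in 16.1% of the top quartile and 12.4% of the lowest, 3.63 points apart (1.89 to 5.35). The difference between these 2 contrasts was not tested. By class, the shares in the top and lowest quartiles were 18.3% and 16.9% in introns and 14.2% and 20.5% in gene deserts. They were 15.5% and 10.4% in gene-proximal intergenic peaks and 11.8% and 2.18% in promoter-TSS peaks. A similar share in the top and lowest quartiles was thus not particular to mid-range peaks.

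Exact sites of weak and strong mid-range peaks differed in their surroundings. In the top quartile, 59.3% of 135 exact sites had their middle within 20 bp of the peak centre, against 36.4% of 140 sites in the lowest quartile, a difference of 22.8 points (11.04 to 33.8). In contrast, C or T stood just outside both arms in 54.1% of the exact sites of the top quartile and in 73.6% of those of the lowest, a difference of -19.5 points (-30.2 to -8.15). The same was true of 24.5% of the exact sites in unweighted intergenic windows. Repeats took 13.02% of the mid-range peaks in the top quartile and 20.2% in the lowest, and their part in these differences was not tested.

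**Figure D3:**
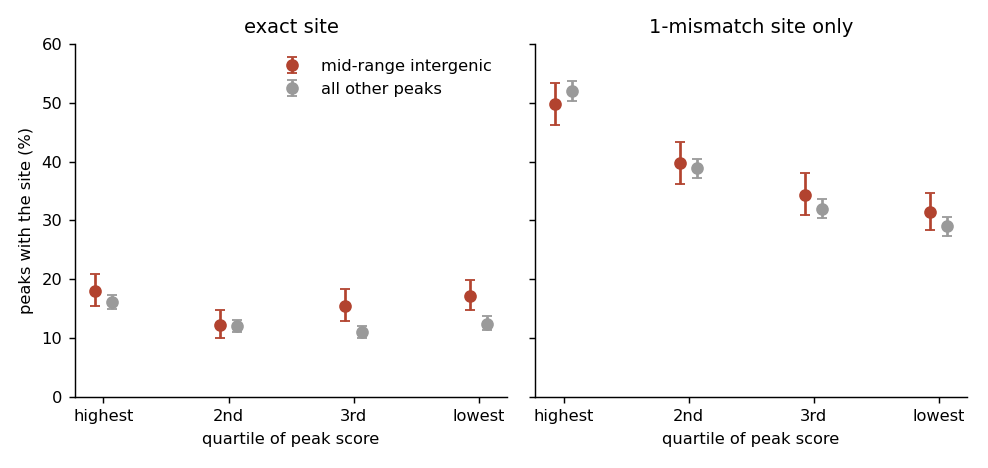
Share of peaks in percent with an exact NFI full site (left) or only a site with 1 mismatch (right) by quartile of peak score, with 95% Wilson intervals. In mid-range intergenic peaks (red) the share with a 1-mismatch site goes from 49.8% in the highest to 31.4% in the lowest quartile, whereas exact sites are at 17.99% and 17.1%.

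The distance of the mid-range peaks from the TSS had a median of 30515 bp, with quartiles of 18456 and 50983 bp. At the inner limit, the nearest member lay 10002 bp upstream of *Homer3* with a score of 4.78, and the first peak outside it 9995 bp upstream of *Pdlim3* with a score of 6.17. At the outer limit, the last member lay 99935 bp upstream of *Ankrd55* with a score of 14.1, and the first peak beyond it 100381 bp downstream of the TSS of *1700027F09Rik* with a score of 18.3. Peaks upstream of the TSS made up 62.1% (60.4 to 63.8). This share was 69.7% at 10 to 20 kb, 62.0% at 20 to 50 kb and 53.8% at 50 to 100 kb. Intergenic DNA downstream of a TSS begins only beyond the end of the gene, and the part of gene length in these shares was not tested.

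Density was computed over intergenic DNA with both peaks and bases classified by the RefSeq annotation of GRCm38. At 10 to 100 kb from the TSS there were 4.48 peaks per Mb (4.32 to 4.64, exact Poisson interval), against 7.02 within 10 kb and 0.786 beyond 100 kb. Within the class, density decreased with distance, from 6.01 peaks per Mb at 10 to 20 kb (5.62 to 6.43) to 4.95 at 20 to 50 kb (4.69 to 5.23) and 3.04 at 50 to 100 kb (2.83 to 3.27). Among the autosomes it ranged from 3.61 on chromosome 7 to 6.78 on chromosome 15. Chromosome X had 0.657 peaks per Mb (0.455 to 0.917), below the interval of every autosome. No peak was counted on chromosome Y, with an upper limit of the interval of 0.298 per Mb. Copy number of the X chromosome and mappability cannot be told apart from binding in this list.

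**Figure D4:**
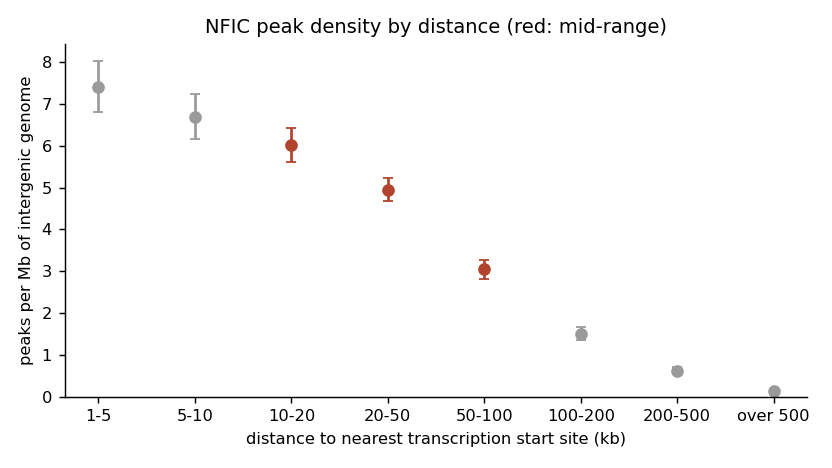
Peaks per Mb of intergenic genome by distance to the nearest TSS in kb, with exact Poisson 95% intervals. The mid-range bins (red) are at 6.01, 4.95 and 3.04 peaks per Mb, between the denser bins closer to genes and the sparser ones beyond 100 kb.

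Motifs of factors known from acinar cells were searched as fixed letters on both strands of the same 200-bp windows. The E-box bound by bHLH proteins such as PTF1A and MIST1 (CAGCTG or CATCTG) was present in 37.0% of the mid-range intergenic peaks (35.3 to 38.8), in 21.5% of the intergenic windows and in 26.8% after weighting by GC content. The NR5A2 motif (CAAGGTCA or CAAGGCCA) was present in 6.27% of the peaks, 2.92% of the windows and 4.01% after weighting. Its second spelling ends in GCCA, an arm of the NFI full site, so its share is not independent of that site. The forkhead motif (TGTTTAC or TATTTAC) was found in 7.91% of the peaks, 6.41% of the windows and 3.44% after weighting, and the AGATAA motif of GATA factors in 10.8%, 12.96% and 7.17%. For these last motifs the comparison thus depended on GC content, with GATA below the unweighted and above the weighted share. Peaks in introns and gene deserts had similar shares, 36.2% and 37.9% for the E-box and 6.09% and 6.33% for NR5A2. For the forkhead motif they were 7.87% and 8.69%, and for GATA 10.7% and 11.9%. In all peaks of the list the E-box was present in 32.5% and the forkhead motif in 6.38%. The RBPJ motif (TGGGAA) was found in 22.7% of the peaks, 16.9% of the windows and 18.98% after weighting. The shares of the AP-1 motif (TGAGTCA) were 4.83%, 3.16% and 3.34%. The ONECUT motif (ATCAAT) had no excess, with 5.50% of the peaks, 10.5% of the windows and 5.41% after weighting. The HNF1 motif was rare, with 11 peaks (0.369%), as against 0.0457% of the windows and 0.0173% after weighting. The GGGCGG motif of SP and KLF factors was present in 9.89% of the mid-range peaks and in 58.5% of promoter-TSS peaks.

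The E-box was equally frequent in mid-range peaks with and without an NFI full site, at 37.1% and 37.0% (difference without minus with, -0.00639 points, -3.48 to 3.48). Several other motifs were more frequent where the NFI full site was missing, and so was the single NFI arm TTGGCA. The arm was present in 39.8% of the peaks without and 35.9% of those with a full site. This difference was 3.96 points (0.469 to 7.45), so peaks without a full site did not lack NFI arms. The forkhead motif was present in 10.1% of the peaks without and 6.09% of those with a full site, a difference of 3.996 points (2.04 to 6.02). The differences in the same direction were 4.90 points for RBPJ (1.88 to 7.94), 4.46 for the CCAAT box of NFY (1.30 to 7.63), 4.29 for SP (2.12 to 6.50) and 3.10 for CTCF (0.427 to 5.80). CCAAT reads ATTGG on the other strand and shares TTGG with the NFI arm, so its share is not independent of that arm. For GATA the difference was 2.08 points (-0.153 to 4.36) and for NR5A2, of which 1 spelling holds an NFI arm, -0.964 points (-2.69 to 0.801). These are 14 motifs, beside the NFI arm, compared on 1 list, without adjustment of the intervals.

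CTCF, the zinc finger protein of insulators and chromatin loops, had its motif (at most 1 mismatch) in 490 mid-range intergenic peaks (16.4%, 15.1 to 17.8), and in 7.78% of the weighted windows. The share was 10.9% in gene-desert intergenic peaks, 5.53 points lower (2.66 to 8.06), 12.4% in introns, 4.03 points lower (2.502 to 5.61), and 17.8% in gene-proximal intergenic peaks. Promoter-TSS peaks had it in 17.3% and all peaks of the list in 15.3%. Weighting by GC content changed the share of windows, which was 4.09% without it. The median GC content was 52.0% in mid-range, 49.0% in gene-desert and 52.0% in intron peaks. Its part in the differences between classes was not tested. Without mismatch, the motif was present in 91 mid-range peaks (3.05%, 2.49 to 3.73), against 0.179% of the windows, which were not weighted here, and 0.884% of gene-desert peaks. Gene-proximal peaks had it in 3.06%, promoter-TSS peaks in 2.05% and all peaks in 2.26%. Of these 91 peaks, 36.3% had an NFI full site, and their median score was 6.17. The CTCF motif was as frequent in the top as in the lowest quartile of score, at 17.3% and 17.0% (difference 0.318 points, -3.43 to 4.09).

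The centre of 473 mid-range intergenic peaks (15.9%, 14.6 to 17.2) lay in an annotated repeat, and that of 97 peaks (3.25%) in a CpG island. The repeat share was 10.5% in all peaks, 13.4% in introns, 17.1% in gene-proximal and 17.2% in gene-desert intergenic peaks. The differences from the last 2 classes were within counting error, at -1.206 points (-3.792 to 1.243) and -1.375 points (-4.652 to 1.605). Of the 3270 promoter-TSS peaks, 0 were counted on a repeat and 0 in a CpG island, so both may go unrecorded in that class. The share of all peaks, which includes it, is therefore no reference for the mid-range share. No repeat share of intergenic windows is given, so neither an excess nor a deficit of repeats can be read. LTR elements of endogenous retroviruses were the most frequent, with 224 peaks, followed by SINEs with 112 and LINEs with 76. In all peaks of the list the order was the same, with 626, 542 and 272. By family, ERVK had 83 peaks and ERVL-MaLR 73. Peaks on repeats had an NFI full site in 50.5% and those off repeats in 55.2%, a difference of -4.69 points (-9.58 to 0.199). The median score was 5.98 on repeats (5.78 to 6.37) and 6.57 off them (6.37 to 6.77). Reads from repeats may align to several copies, and how they were counted is not given in the sources used here. At CpG islands the median GC content was 70.0%, and the NFI full site was present in 43.3% (33.9 to 53.2). CpG islands took 6.88% of gene-proximal and 0.884% of gene-desert intergenic peaks, so the mid-range class lay between them.

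The highest score among mid-range intergenic peaks, 47.4, was that of the peak 73209 bp upstream of *Irf2bp2*, which codes for a transcriptional co-regulator, and ranked 4th of all 15824 peaks. A second peak of the top 10 lay near the same gene, 74465 bp upstream, with a score of 29.5. The second highest score, 37.4, was found 30895 bp upstream of *Srp14*, which codes for a subunit of the signal recognition particle. The other peaks of the top 10 lay near *Rmi2* (30.7), *Idh2* (30.7), *Rrm2* (30.1), *Camk1g* (29.9), *Zfp395* (29.9), *Tmem177* (27.9) and *Skil* (27.3). *Idh2* codes for a mitochondrial isocitrate dehydrogenase, *Rrm2* for a subunit of ribonucleotide reductase and *Skil* for a repressor of TGF-beta signalling. Of these 10 peaks, 9 had an NFI full site and 4 an exact one. The peak of *Zfp395* lay in a CpG island and that of *Skil* in a repeat.

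Mid-range intergenic peaks were nearest to 2126 genes, of which 1572 (73.9%) had a single one and 31 had 5 or more. The gene is that of the nearest TSS in the authors' annotation, and no contact of a peak with a promoter was measured. In the RefSeq copy used here, 342 of the 2983 peaks (11.5%) had another nearest gene symbol. Non-coding RNA genes were nearest to 570 of the peaks (19.1%). *Zfp706*, a zinc finger gene, and *Tob1*, which codes for an antiproliferative protein, each had 9. For *Tob1* all 9 lay upstream, between 18125 and 76835 bp, with scores from 5.38 to 18.7, and 5 had an NFI full site. By the RefSeq copy, 7 of them are nearest to the gene *B230206L02Rik*. For *Zfp706* the scores ranged from 3.98 to 22.7, and 5 of the peaks lay upstream and the others downstream. The peak with 22.7, at 33983 bp upstream, lay in an ERVK element without a full site. *Sik1*, a salt-inducible kinase gene, had 8, with scores from 4.18 to 8.96, of which 7 had a full site.

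*Lncppara*, *6030466F02Rik* and *Cxxc5* had 7 mid-range intergenic peaks each. *Lncppara*, a long non-coding RNA gene near *Ppara*, had all of them upstream, and the highest had a score of 25.3 at 50224 bp. *Cxxc5* and the non-coding *6030466F02Rik* had theirs within 35760 and 34071 bp, of which 1 and 4 are nearest to another gene by the RefSeq copy. Those with 6 each were *Lrpap1*, *Svil*, *Wsb1*, *Adrb1*, *Dhrs3*, *8430430B14Rik*, *A530013C23Rik*, *Irf2bpl* and *Pik3r1*. At *Pik3r1*, the regulatory subunit of PI3-kinase, all lay upstream with scores of at most 6.57, whereas at *Dhrs3*, a retinaldehyde reductase gene, all lay downstream with scores of up to 12.1. Of these 6 peaks each, 5 had an NFI full site at *Lrpap1* and 1 at *Adrb1*. Another gene is nearest in the RefSeq copy for 5 of the peaks of *A530013C23Rik* and for 2 each of *8430430B14Rik* and *Adrb1*.

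**Figure D5:**
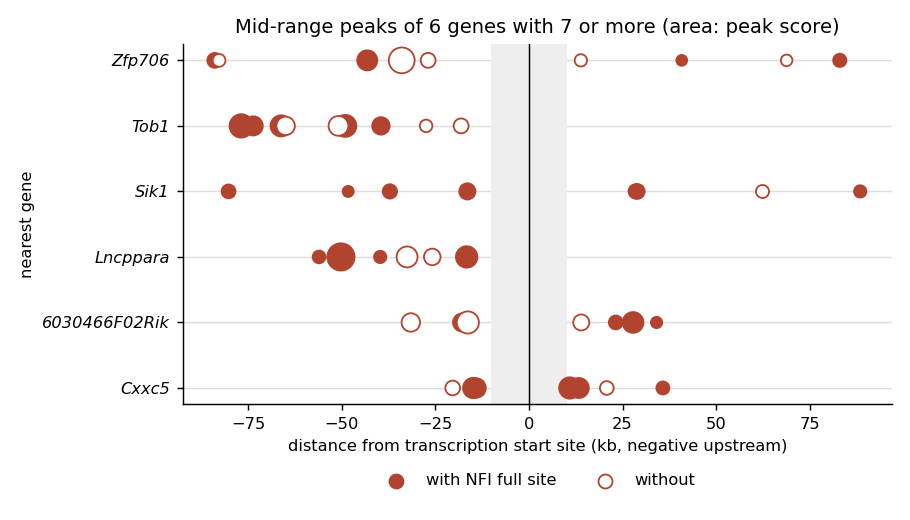
Position of the mid-range intergenic peaks of 6 genes with 7 or more, in kb from the TSS (negative upstream), with symbol area in proportion to the peak score and filled symbols for peaks with an NFI full site. The peaks of *Tob1* and *Lncppara* all lie upstream, and those of the other 4 genes lie on both sides.

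Some of the peaks lay close to each other, and the same shares were not computed for other classes or for all peaks. Another mid-range intergenic peak lay within 12500 bp of 860 of them (28.8%, 27.2 to 30.5), and within 5 kb of 412 (13.8%). Chaining peaks at most 12500 bp apart gave 289 pairs, 61 groups of 3, 16 of 4, 3 of 5, 1 of 6 and 2 of 7. One group of 7 was that of *Lncppara*, over 39.6 kb, in which 5 peaks had an NFI full site. The other lay between *Lrrc74a* and *Irf2bpl*, over 41.01 kb, with scores from 3.78 to 15.7, and 1 of its 7 peaks had a full site.

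Genes with a mid-range intergenic peak had a peak in the promoter, from -1000 bp to the TSS, in 15.4% (327 of 2126, 13.9 to 17.0). The share was 9.80% in the upper 2 quartiles of score and 24.2% with the promoter extended to 1000 bp past the TSS. For 966 of the 2126 genes (45.4%), every peak assigned to the gene was a mid-range intergenic one. Of the other 1160 genes, which had a peak of another kind as well, 28.2% had a promoter peak (25.7 to 30.9). Bound genes without a mid-range intergenic peak, which by definition have a peak of another kind, had one in 29.5%. The difference of -1.32 points (-4.06 to 1.54) was within counting error.

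Gene lists for the pancreas were set beside all protein-coding genes of the annotation, of which 7.69% (1675 of 21774) had a mid-range intergenic peak. Of the 7653 protein-coding genes with any peak, 21.9% did. Among 14 acinar transcription factors, all had a peak and 7 had a mid-range intergenic one. These were *Ptf1a* and *Tcf3*, which code for PTF1 subunits, *Tcf12*, *Nr5a2*, *Gata4*, *Gata6* and *Xbp1*, the regulator of secretory capacity. Their 16 peaks all lay upstream and had a median score of 7.37, beside 6.37 for all mid-range peaks, and 9 had an NFI full site. The highest score, 19.7, was found 72292 bp upstream of *Tcf12*, in a peak without a full site but with a forkhead and an RBPJ motif. *Gata4* had 5 peaks, from 10873 to 83994 bp, and those at 81042 and 83994 bp both had a score of 13.7 and a full site. By the RefSeq copy, 3 of these 5 peaks, among them both with 13.7, are nearest to *Gm46458*. *Gata6* had 3, of which the one at 31133 bp lay in a LINE element and had a score of 17.5. *Nr5a2* had 2, with scores of 9.96 and 4.78, and both had a full site. The peak of *Ptf1a* lay in a CpG island 13329 bp upstream, with a score of 5.78 and no full site. *Xbp1* had 3, with scores of 12.9, 10.4 and 5.98, which lie in another gene, *Gm11963*, by the RefSeq copy used here.

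Of 34 genes for digestive enzymes and granule proteins, 24 had a peak and 7 a mid-range intergenic one, each a single peak, with a median score of 6.77. The highest scores were 8.96 upstream of *Pnlip*, the pancreatic lipase gene, and 8.37 upstream of its paralogue *Pnliprp2*, both without a full site. The peaks near the amylase genes had scores of 6.77 (*Amy2b*), 4.18 (*Amy2a5*) and 3.78 (*Amy1*). The one of *Amy2b* had an exact site and lay in an LTR element. The amylase genes are near-identical copies, so the assignment of reads among them is uncertain. *Cpb1* and *Dmbt1* had scores of 4.78 and 7.17.

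Of 12 HNF, FOXA and ductal genes, 9 had a peak and 4 a mid-range intergenic one, among them *Foxa2*, *Krt19* and *Hes1*. The 3 peaks of *Foxa2* lay downstream of its TSS, with scores from 5.38 to 11 and no full site, and the highest had a forkhead motif. The ductal keratin gene *Krt19* had 1 with an exact site (8.56), and *Hes1*, a target of Notch signalling, had 1 (7.77). KLF transcription factors had the largest share of the 12 lists, with 8 of 10 genes (80.0%, 49.0 to 94.3) and 15 peaks. The scores of these were modest, with a median of 5.78 and a highest of 10.6 at *Klf10*, and 7 had a full site. *Klf3* (1 nearest to *Gm21011* by the RefSeq copy) and *Klf15* had 3 each, *Klf4*, *Klf9* and *Klf10* 2 each, and *Klf2*, *Klf7* and *Klf13* 1 each. No test of any list was made, since the lists were chosen with earlier results of these data known.

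Genes of the unfolded protein response had 7 mid-range intergenic peaks with a median score of 9.96, at 3 of 18 genes. *Ddit4*, a stress-induced inhibitor of mTORC1, had 4, with scores from 7.37 to 12.7 on both sides of the TSS. *Edem1*, which acts in the degradation of misfolded glycoproteins, had 2 in ERVK elements 34116 and 42828 bp downstream of the TSS, with scores of 9.56 and 14.7, and the second had an exact site. *Sel1l*, of the same degradation pathway, had 1 with a score of 4.58. Of the 11 AP-1 genes, 9 had a peak of any kind, and only *Jun* had mid-range intergenic ones. Its 4 peaks had scores from 5.58 to 11.4, and the 2 highest are nearest to *Gm12708* by the RefSeq copy. In the NFI family, *Nfix* had 1, 10755 bp upstream with a score of 11.8 and a full site, and *Nfic* itself had none.

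Nuclear receptors had 11 peaks at 5 of 20 genes, namely *Thrb* (4), *Rxra* (3), *Nr3c1* (2), *Nr2f2* and *Nr4a1*. Of the 20 genes, 17 had any peak, so the share among these was 29.4%, beside 21.9% of all protein-coding genes with any peak. All 3 peaks of *Rxra*, the common partner of nuclear receptor dimers, had a full site, with scores from 5.78 to 7.77, and 1 is nearest to *Gm13421* by the RefSeq copy. Of 16 genes of the TGF-beta and BMP pathway, 12 had a peak and 4 (33.3% of these) a mid-range intergenic one. *Id2* had a peak with a score of 17.3 at 14334 bp upstream and no full site. *Smad7*, the inhibitory member, had 2 downstream, both with an exact site and scores of 5.58 and 4.98, and *Smad3* and *Bmp7* had 2 and 1. Of 15 chemokine and complement genes, 4 had a peak and 2 a mid-range intergenic one. These were *Cxcl13* (14.5) and *Cxcl12* (6.97), both with the peak downstream of the TSS. Of 15 islet genes, 5 had a peak of any kind, and only *Neurod1* had a mid-range intergenic one (5.78). Of 9 pancreatic cancer drivers, 5 had a peak and 2 a mid-range intergenic one. *Arid1a*, a subunit of a chromatin remodelling complex, had 1 with a score of 17.5 and an exact site 21170 bp upstream. Its second, with 8.17, lay in a CpG island and is nearest to *Gm12974* by the RefSeq copy. *Myc* had 1 (7.77), with a full site.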

How the data were processed

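The data were 1 merged list of NFIC peaks from wild-type pancreas. Per the labels' processing notes, BWA, Picard and MACS2 were used on mm10, and the header of the list names HOMER for annotation. The methods of the study give RUbioSeq+ and HOMER in a paragraph on downloaded data. Thresholds and versions are not given in the sources used here. The deposited peak score is the authors' own, on an unnamed scale, and was used only within the list. The focus ratio, a deposited fraction of the tags of a peak, was not analysed. Distances to the TSS are those of the authors. All peaks were 173 bp long. The list has no value per library, so no depth, normalization or replicate error was available and no p-value was computed.

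The members were taken by class and distance. Sequences, windows of 200 bp and densities came from GRCm38 with RefSeq transcripts, whose release may differ from that of the authors. Of 2975 members with a transcript in that copy, 92.6% had the same distance within 1 bp. By that copy, 2805 members stayed in the class, 42 were within 10 kb, and 136 lay in a gene or within 1000 bp of it. Windows were weighted in bins of 5 points of GC content. Intervals were Wilson and Newcombe for shares, exact Poisson for densities and order statistics for medians. Genes named are those nearest to the 10 highest scores, those with the most members (ties kept) and list genes with a member. Some genes that meet this rule are not reported here. Sequences are those of the first and last groups with an exact site, except on chromosome 18, and *Idh2*. The members, the lists and the comparisons were chosen with earlier results of these data known. The steps were tested on simulated data. Alternatives varied the score, chromosome X, merging of peaks, annotation, repeats, mismatches, windows and promoter limits. The scripts ran under Python 3.11 with scipy 1.17.1, pandas 2.3.3, numpy 2.4.6 and matplotlib 3.10.9.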

Additional observations from a re-analysis of the deposited data

How the results depend on the processing

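Of 67 alternatives over 15 results, 50 left the result the same by set rules. A share, median or density had to stay within the interval of the main value. For a difference, the sign had to stay, and the interval had to include or exclude 0 as before. The number of peaks was judged by a set limit on its change. One difference changed sign: without mismatch, the NFI full site was 2.23 points more frequent in mid-range than in gene-proximal intergenic peaks (-0.200 to 4.50), an interval that includes 0 as before. Without peaks on repeats, the difference in the top score quartile to gene-desert peaks was 3.75 points and its interval included 0. The cause was not tested. Keeping the upper 2 quartiles of score gave 1485 peaks, a site share of 59.9%, 2.22 peaks per Mb, 26.4% with a neighbour within 12500 bp, 9.80% of genes with a promoter peak and 13.9% on repeats, with fewer peaks by construction. The excess of the site over promoter-TSS peaks was then 9.74 points (6.24 to 13.2) and kept its sign. Without mismatch the site share was 15.7%, and in 100-bp windows 40.7%. The forkhead share in 100-bp windows was 4.16%, and the CTCF share without mismatch, an alternative chosen after seeing the data, was 3.05%. Without chromosome X there were 4.81 peaks per Mb. Neighbours within 5 and 25 kb gave 13.8% and 41.5%. Promoter limits of 100 and 1000 bp past the TSS gave 18.3% and 24.2% of genes. No paired analysis was possible because the list holds no value per library, and replicates could not be left out for the same reason. The unknown depth limits what can be said of peaks that were not called.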
